A study of Mus musculus with 8 samples.

Results

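The 9 genes described here are used to tell apart the zones of the mouse main olfactory epithelium, and all 9 were found by symbol among the 22553 genes of the deposited table. Nqo1, Acsm4 and Msx1 were taken as dorsal genes, Ncam2, Nfia, Nfib and Nfix as ventral genes, and Cyp26b1 and Reg3g as a retinoid-degrading enzyme and a secreted lectin. Ribosome footprints, the stretches of mRNA that a ribosome covers, and input RNA were sequenced from sorted cells. Ngn1-GFP cells are, per the labels, immediate neuronal progenitors and immature olfactory sensory neurons, and OMP-GFP cells are mature olfactory sensory neurons. Control mice were Mex3a flox/flox or Mex3a flox/+ without a Cre driver. Their reporter was the transgene Ngn1-GFP in one population and the knock-in OMP-ires-GFP in the other. KO mice were Mex3a flox/flox with a Cre driver and had those reporters too. All 4 groups thus carry at least 1 floxed Mex3a allele and a GFP reporter. The genotype tag of the OMP-GFP KO names OMP-ires-Cre, while its description names OMP-ires-GFP. The labels give no age. Each group had 2 footprint libraries, but the table holds 1 footprint column and 1 RNA column per group. No value therefore has a spread between replicates, no test between groups was possible, and intervals in brackets are 95% counting intervals only. Where 4 values are given in a row, the Ngn1-GFP pair comes before the OMP-GFP pair, each with the control first and the KO second.

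Olfactory sensory neurons choose 1 receptor each, and the zone in which a neuron lies limits which receptors it can choose. Dorsal neurons express the quinone reductase Nqo1 and the acyl-CoA synthetase Acsm4, and ventral neurons express the adhesion molecule Ncam2, also called OCAM. The nuclear factor I proteins Nfia, Nfib and Nfix are transcription factors that act in the zonal pattern of receptor choice, and retinoic acid, which Cyp26b1 breaks down, forms graded signals in the same tissue. The dorsal and ventral marks describe position and not maturity.

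Footprint totals were 4456989, 3031489, 3576406 and 4100841, and RNA totals lay between 26946592 and 89327877. The deleted gene Mex3a had 437, 28, 16 and 5 footprints. The 9 neuronal precursor markers summed to 1391 and 1700 CPM of footprints (counts scaled to the column's total) in the Ngn1-GFP columns and to 157 and 166 in the OMP-GFP columns. The 12 mature neuron markers summed to 15769 and 17262 CPM against 24704 and 26922. Omp itself, the defining mature gene, was at 5744 RPKM in the Ngn1-GFP and 5492 RPKM in the OMP-GFP control. Its RNA went the other way (2244 against 3210 TPM). After the TMM scaling used for ratios below, footprints of all 12 mature markers, Omp included, were higher in the OMP-GFP control. In KO mice Omp was lower in the Ngn1-GFP column (5904 against 7302 RPKM). The 13 sustentacular markers, genes of the supporting cells, summed to 5709, 683, 155 and 540 CPM, and none of them was at 0 in any column. In sorted bulk samples, fewer cells of a type and less RNA per cell cannot be told apart.

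The dorsal enzymes were among the most translated genes of both populations. Nqo1 detoxifies quinones with NAD(P)H. Its counts were 4774, 3241, 4410 and 5037 footprints. Per length these were 1298, 1296, 1495 and 1489 RPKM (footprints scaled to coding length and to the column's total), at percentile 99.8 of all genes in each column. The mature columns were the higher pair and KO and control were nearly equal within each population. Acsm4, also known as O-MACS, is a mitochondrial medium-chain acyl-CoA synthetase. It had 2789, 1445, 2554 and 2663 footprints, or 359, 273, 410 and 373 RPKM. Its Ngn1-GFP KO column was the lowest and its OMP-GFP control the highest. Msx1, a homeodomain factor, had 0 footprints in each of the 4 columns, with RNA counts of 145, 49, 11 and 13. At its share of RNA reads, 15.8 footprints would have been counted over the 4 columns. Of the 13750 genes with at least as many RNA reads in all, 279 (2.03%) had no footprint either, and among genes with RNA within 1.5-fold of Msx1 in a column 14.3%, 29.1%, 48.9% and 64.7% had none. A count of 0 allows up to 3 footprints, or 0.738, 1.09, 0.920 and 0.802 RPKM in the 4 columns, so translation of Msx1 was not detectable at this depth. Its dorsal mark can be followed here in RNA only.

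Among the ventral genes, the cell adhesion molecule Ncam2 stood well above the transcription factors. It had 2192, 1305, 1918 and 1666 footprints, or 188, 164, 205 and 155 RPKM, with both KO columns below both controls. Nfix had 506, 250, 444 and 381 footprints, or 75.1, 54.5, 82.1 and 61.4 RPKM, also with both KO columns below both controls. Nfib had 354, 166, 131 and 102 footprints, or 44.4, 30.6, 20.5 and 13.9 RPKM. Nfia had 280, 150, 75 and 62 footprints, or 38.2, 30.1, 12.8 and 9.20 RPKM. The last 2 genes were higher in both Ngn1-GFP columns than in either OMP-GFP column. The remaining gene of the family, Nfic, which belongs to neither zone list, had 125, 42, 68 and 45 footprints, or 19.5, 9.64, 13.2 and 7.64 RPKM. In the Ngn1-GFP control the order per length was Nfix, Nfib, Nfia and Nfic, and the intervals of Nfib [39.9, 49.3] and Nfia [33.9, 43.0] overlapped. In the OMP-GFP control the order was Nfix [74.6, 90.1], Nfib [17.1, 24.3], Nfic [10.3, 16.8] and Nfia [10.04, 16.0], with overlap between the last pair only.

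Cyp26b1, the cytochrome P450 that inactivates retinoic acid, had 116, 55, 216 and 120 footprints, or 16.9, 11.8, 39.2 and 19.0 RPKM. The OMP-GFP control was high and the other 3 columns lay between 11.8 and 19.0. Reg3g, a secreted C-type lectin of epithelial defence against Gram-positive bacteria, had 597, 258, 36 and 31 footprints, or 255, 162, 19.2 and 14.4 RPKM. It was high in both Ngn1-GFP columns and low in both OMP-GFP columns.

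**Figure D1:**
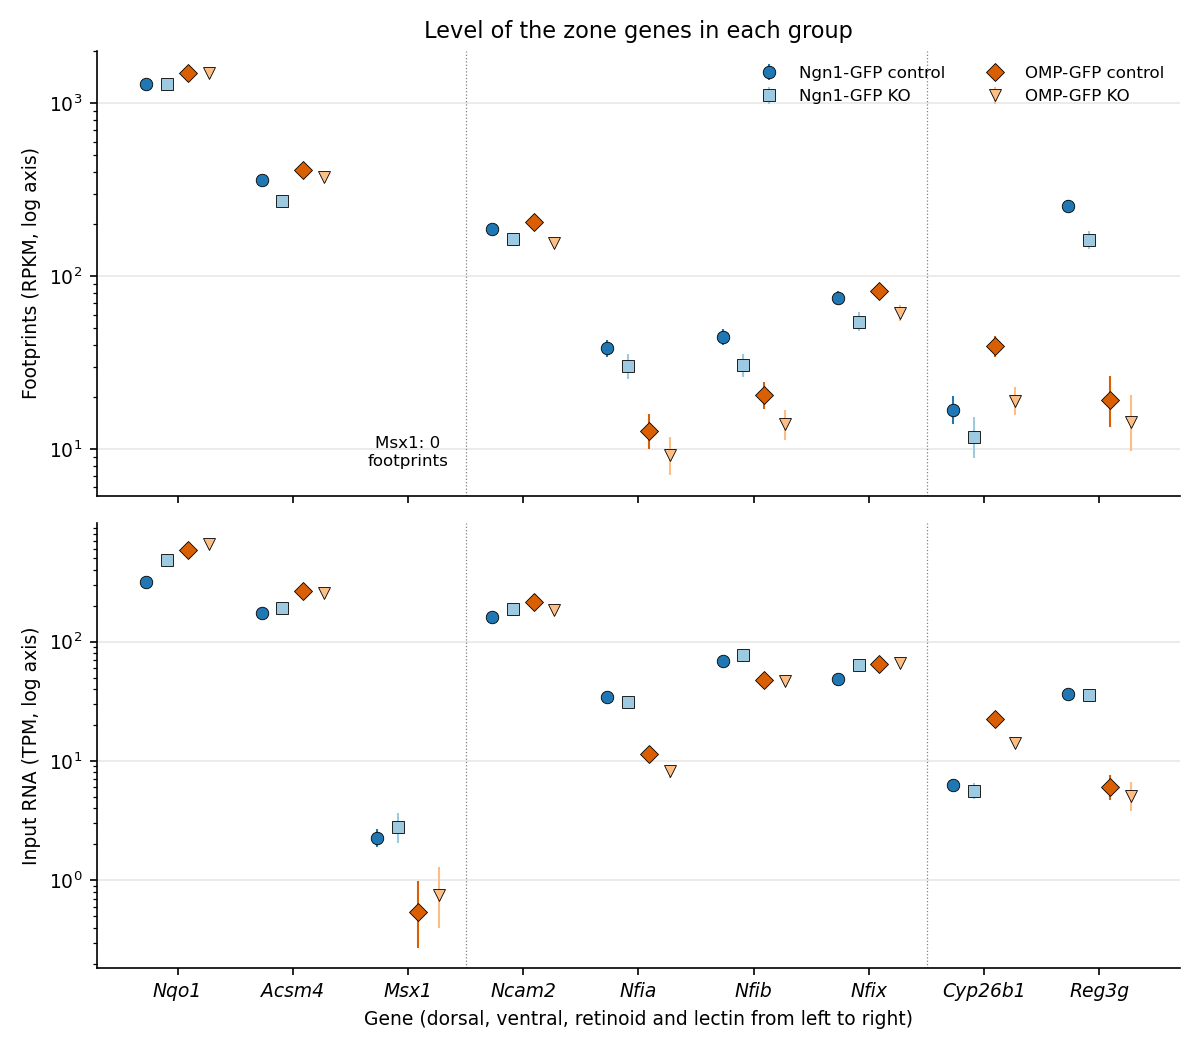
Footprint RPKM (upper panel) and RNA TPM (lower panel, RNA scaled to length and column total), on log axes, of the 9 genes in the 4 groups, with 1 point per group and 95% counting intervals as bars. Nqo1 is highest in both panels, Reg3g and Nfia drop from the Ngn1-GFP to the OMP-GFP columns, and Msx1 has 0 footprints and is drawn in the RNA panel only.

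The members lie on 6 chromosomes of the mouse genome GRCm38 (mm10), so they are no gene cluster. Nqo1 spans 107388225 to 107403205 on chromosome 8 and Acsm4 119690026 to 119714566 on chromosome 7, while Ncam2 spans 81200697 to 81624290 on chromosome 16. Nfia (97578066 to 98118876) and Nfib (82290173 to 82506751) share chromosome 4, and Reg3g (78466269 to 78468874) and Cyp26b1 (84571414 to 84593908) share chromosome 6. Nfix lies on chromosome 8, 84704712 to 84801238, and Msx1 on chromosome 5, 37820491 to 37824585. Counts cover the coding sequences.

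The 250 bases before the RefSeq start of 4 members (GRCm38.p6) are shown because they are the start regions of the best-measured dorsal and ventral genes and of the gene with the largest difference between populations. They are written 5′ to 3′ in the direction of the gene, and capitals mark matches to the searched motifs on either strand.
Nqo1, chr8:107403206-107403455, minus strand: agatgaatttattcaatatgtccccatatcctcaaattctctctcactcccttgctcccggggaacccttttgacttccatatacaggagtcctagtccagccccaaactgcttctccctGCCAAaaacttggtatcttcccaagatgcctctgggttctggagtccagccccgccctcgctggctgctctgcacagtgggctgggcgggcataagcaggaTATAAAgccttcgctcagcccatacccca
Acsm4, chr7:119689776-119690025, plus strand: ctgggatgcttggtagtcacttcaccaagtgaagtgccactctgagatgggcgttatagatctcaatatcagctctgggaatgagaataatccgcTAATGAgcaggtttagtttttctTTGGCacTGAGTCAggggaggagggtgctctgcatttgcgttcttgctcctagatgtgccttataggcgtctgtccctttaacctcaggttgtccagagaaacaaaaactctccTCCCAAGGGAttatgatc
Ncam2, chr16:81200447-81200696, plus strand: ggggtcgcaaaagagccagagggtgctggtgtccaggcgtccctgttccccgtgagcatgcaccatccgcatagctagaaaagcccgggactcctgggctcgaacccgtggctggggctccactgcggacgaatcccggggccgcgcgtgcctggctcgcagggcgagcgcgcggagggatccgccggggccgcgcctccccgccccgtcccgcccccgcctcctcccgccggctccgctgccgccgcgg
Reg3g, chr6:78468875-78469124, minus strand: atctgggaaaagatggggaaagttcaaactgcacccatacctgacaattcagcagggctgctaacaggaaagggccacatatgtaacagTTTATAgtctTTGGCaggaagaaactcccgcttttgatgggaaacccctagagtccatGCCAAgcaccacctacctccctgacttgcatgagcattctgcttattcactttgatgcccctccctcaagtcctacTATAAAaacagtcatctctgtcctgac
The motifs were a TATA box (TATAAA), a single site of nuclear factor I (TTGGC) and the paired, palindromic site of that family, the antioxidant response core (TGACNNNGC), the AP-1 site (TGANTCA), the LIM homeodomain core (TAATNA), the Olf/Ebf site, and pairs of GGTCA spaced by 2 or 5 bases as retinoic acid response elements. The paired site holds the single site, and no other pair of motifs contains one another. Nqo1 held TATAAA at -29 to -24 from its start and a single nuclear factor I site, TATAAA being in 12.4% and TTGGC in 41.5% of 32851 windows of the same length. Acsm4 held a single site (-132 to -128), an AP-1 match, TGAGTCA (-125 to -119; 6.75% of windows), a LIM homeodomain core (24.3%) and the Olf/Ebf match TCCCAAGGGA (-18 to -9; 0.779% of windows). Ncam2 (75.2% G and C) and Nfia (44.8%) held no match. The Nfia window (97581693 to 97581942) lies inside the gene span given above, so it does not precede the outermost start. The same holds for the 4 Nfix windows (within 84772876 to 84780332), and the Cyp26b1 window overlaps its gene span in part. Reg3g held TATAAA at -27 to -22, its complement TTTATA upstream, and a single nuclear factor I site on each strand. Of 8 members with a window, none held the paired site or a spaced GGTCA pair; Nfib had none in the table. A match describes letters and is no evidence of binding.

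Between immature and mature cells the zone genes split by gene and not by zone. The comparison asks which of them differ in footprints and RNA between OMP-GFP and Ngn1-GFP cells. Ratios are log2 of OMP-GFP over Ngn1-GFP after TMM scaling, and a gene is called when it is at least 2-fold apart with an interval that excludes 1. In control mice 3 of 8 measured members were called in footprints, where 23.5% of 12387 genes were. Of them 1 was higher and 2 were lower, against 6.11% and 17.4% of genes. In RNA 4 of 9 were called, where 27.5% of 16466 genes were, 1 higher and 3 lower, against 3.43% and 24.1% of genes. In KO mice 2 of 8 were called in footprints, both lower, where 29.6% of 11766 genes were called and 18.4% were called lower. In RNA 4 of 9 were called, 1 higher and 3 lower, where 21.2% of 15058 genes were, 4.77% higher and 16.4% lower. With 8 or 9 genes these counts do not set the members apart from the background, and the description rests on single genes.

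Reg3g had the largest difference. Its footprint ratio was -3.52 [-4.05, -3.03] in controls, 11.5-fold lower in OMP-GFP cells, and -3.27 [-3.85, -2.73] in KO mice. Its RNA counts were 1341, 361, 70 and 51, with ratios of -2.73 [-3.10, -2.38] and -2.66 [-3.11, -2.24]. Sustentacular markers moved with it in the control pair (5709 against 155 CPM, 13 of 13 called lower in footprints). In the KO pair their sums were nearer (683 against 540 CPM). There 9 of 12 lay below 0 and 3 above, with 4 called lower, 0 higher and a median of -0.53. By their sums, vessel and mesenchyme markers (2219 and 2469 against 236 and 244 CPM) moved with Reg3g in both pairs. Of these markers, 9 of 11 were called lower and 0 higher in controls. In the KO pair 7 of 10 were called lower and 2 higher. Horizontal basal cell markers (160 and 161 against 4.47 and 0.732 CPM) moved with Reg3g in both pairs too. So did neuronal precursor markers (8 of 8 called lower in both pairs, median -3.08 in each). Ensheathing glia markers (3 of 3 and 4 of 4 called lower) and microvillar and tuft cell markers (5 of 6 and 4 of 6) also did. Of gland markers, 8 of 9 were called lower in controls, but 4 of 11 lower and 4 higher in the KO pair. Of immune markers, 2 of 5 were called lower in controls and 4 of 7 higher in the KO pair. Their part in the result was not tested.

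Nfia fell in mature cells in both measures. Its footprint ratio was -1.37 [-1.76, -0.996] in controls and -1.48 [-1.94, -1.05] in KO mice, and its RNA counts of 3971, 983, 416 and 257 gave -1.72 [-1.87, -1.58] and -1.77 [-1.98, -1.57]. Nfib went the same way without reaching 2-fold, with footprint ratios of -0.90 [-1.20, -0.61] and -0.91 [-1.28, -0.55] and RNA ratios of -0.64 and -0.59. Nfix went the other way, at 0.34 [0.16, 0.53] and 0.40 [0.16, 0.63] in footprints and 0.27 and 0.23 in RNA. Scaling of the columns cannot move a ratio of 2 genes within a column. Footprints of Nfix per footprint of Nfia, per length, were 1.96 in the Ngn1-GFP control and 6.43 in the OMP-GFP control, a 3.28-fold change [2.45, 4.42]. In KO mice they were 1.81 and 6.68, a 3.69-fold change [2.604, 5.25]. Nfix per Nfib changed 2.37-fold [1.86, 3.03] and 2.48-fold [1.83, 3.37]. The mixture of the 3 ventral factors therefore differed between the populations in both genotypes, with Nfix a larger part of it in OMP-GFP cells. The precursor, vessel, basal, glial and tuft cell markers named above were mostly lower in OMP-GFP cells as well, in both pairs. Of the vessel and mesenchyme markers in the KO pair, 7 of 10 were called lower and 2 higher. The part of these lists was not tested. Of the sustentacular markers, 13 of 13 were called lower in footprints in controls. In the KO pair 4 of 12 were called lower and 0 higher, with a median of -0.53. Their part was not tested either.

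Cyp26b1 was higher in mature cells. Its footprint ratio was 1.43 [1.10, 1.77] in controls, 2.69-fold, and 0.92 [0.44, 1.40] in KO mice, where it was not called. Its RNA counts were 682, 167, 759 and 418, with ratios of 1.69 [1.53, 1.84] and 1.49 [1.22, 1.75], both called. The dorsal enzymes and Ncam2 were nearer to 0. Nqo1 had footprint ratios of 0.42 [0.36, 0.48] and 0.43 [0.36, 0.49] and RNA ratios of 0.76 and 0.57. Acsm4 had 0.41 [0.33, 0.48] and 0.67 [0.58, 0.77], with RNA at 0.49 and 0.57. Ncam2 had 0.34 [0.25, 0.43] and 0.14 [0.04, 0.25], with RNA at 0.29 and 0.12. Nqo1 per Ncam2, a dorsal over a ventral gene, stood at 6.92 in the Ngn1-GFP control and 7.30 in the OMP-GFP control per length, a 1.06-fold change whose interval [0.980, 1.14] holds 1. In KO mice it changed 1.22-fold [1.12, 1.33], and in RNA 1.39-fold [1.35, 1.44] in controls and 1.36-fold [1.31, 1.42] in KO mice. By library size alone the Ncam2 footprint ratio of the KO pair fell to the other side of 0 (-0.08). Msx1 RNA was called lower in OMP-GFP cells, at -2.19 [-3.22, -1.31] and -1.75 [-2.76, -0.85], from 11 and 13 reads.

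**Figure D2:**
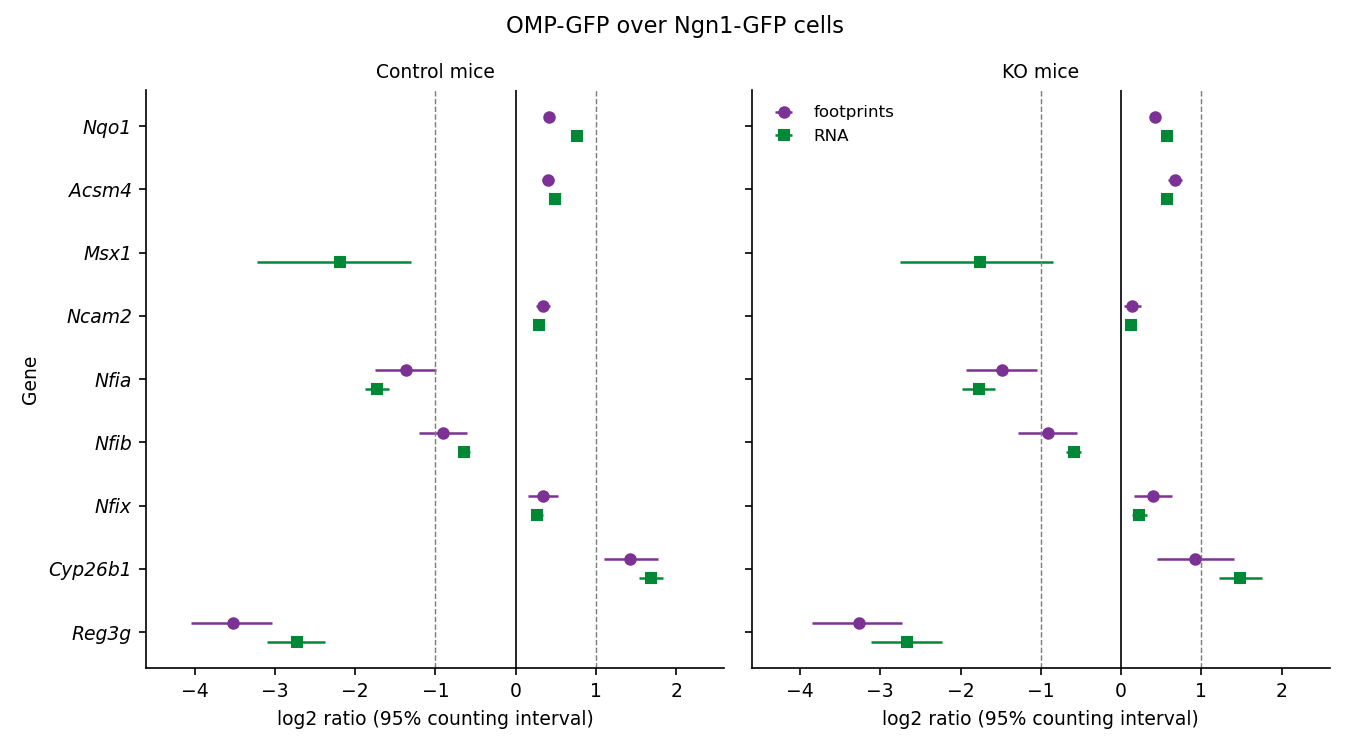
Log2 ratio of OMP-GFP over Ngn1-GFP cells for footprints (circles) and RNA (squares) of each gene in control mice (left) and KO mice (right), with 95% counting intervals as bars and dashed lines at a 2-fold difference. Reg3g, Nfia and Msx1 (RNA only) lie left of the dashed line, Cyp26b1 lies to the right except for its footprints in KO mice (0.92), and Nqo1, Acsm4, Ncam2 and Nfix lie between 0 and 1.

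In Mex3a KO columns the zone genes lay within 2-fold of control. The comparison asks whether genes that mark the zones change in footprints or RNA when this RNA-binding protein is lost. Of 8 members with enough counts, 0 were called in footprints in Ngn1-GFP cells, where 17.3% of 12554 genes were called, and 0 in OMP-GFP cells, where 15.7% of 11160 were. In RNA 0 of 9 were called in either population, against 16.3% of 16564 and 8.29% of 14351 genes. Fewer genes were called once a limit of 100 counts was set. In footprints the shares were then 7.46% (Ngn1-GFP) and 7.12% (OMP-GFP), and in RNA 11.6% and 3.15%. All members met that limit in Ngn1-GFP cells, but 7 of 8 (footprints) and 8 of 9 (RNA) did in OMP-GFP cells. With so few members, 0 called does not set them apart from such genes. With no replicates no p-value exists, and these counts rest on the fold and counting interval alone. At least 1.5-fold and with an interval that excluded 1 were Reg3g footprints in Ngn1-GFP cells, and Cyp26b1 footprints and RNA in OMP-GFP cells. Cyp26b1 footprints there were just under 2-fold lower (1.96-fold) and were called by library size alone. A ratio of the authors' RPKM is the same calculation, because coding length cancels.

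Footprint ratios of KO over control were below 0 for 7 of 8 members in each population, where 50.2% and 49.7% of all genes were. Their medians were -0.36 and -0.34, against -0.002 and 0.004 over all genes. Nqo1 was the exception, at 0.06 [-0.001, 0.13] in Ngn1-GFP and 0.07 [0.01, 0.13] in OMP-GFP cells, and by library size alone it too was below 0 in both. Acsm4 was at -0.33 [-0.42, -0.23] and -0.06 [-0.14, 0.02]. Of the ventral genes, Ncam2 was at -0.13 [-0.23, -0.03] and -0.32 [-0.42, -0.23], Nfix at -0.39 [-0.62, -0.17] and -0.34 [-0.54, -0.14], Nfib at -0.47 [-0.75, -0.20] and -0.48 [-0.87, -0.10], and Nfia at -0.28 [-0.57, 0.01] and -0.39 [-0.90, 0.11]. All 4 ventral genes thus had a negative ratio in each population, and 3 of them intervals below 0 in both. Reg3g was at -0.59 [-0.80, -0.37] and -0.34 [-1.08, 0.40], and Cyp26b1 at -0.45 [-0.94, 0.02] and -0.97 [-1.30, -0.64]. Sustentacular marker footprints were 12 of 13 called lower in the Ngn1-GFP KO (median -2.84) and 8 of 10 called higher in the OMP-GFP KO (median 1.94). Other cell type lists shifted too. In the same order, medians were -0.03 and 2.71 for gland, -1.46 and 1.09 for immune, and 0.90 and 0.74 for ensheathing glia markers. Whether the sorts contributed to the members' ratios was not tested.

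RNA did not share the lower footprints of all of these genes. Nqo1 RNA counts were 18200, 7745, 10692 and 10288, with KO ratios of 0.40 [0.36, 0.44] in Ngn1-GFP and 0.20 [0.16, 0.24] in OMP-GFP cells. Ncam2 counts of 29319, 9511, 12374 and 9266 gave 0.01 [-0.03, 0.04] and -0.16 [-0.20, -0.12], and Acsm4 counts of 21149, 6399, 10290 and 8484 gave -0.10 [-0.14, -0.05] and -0.02 [-0.06, 0.02]. Nfix (5190, 1837, 2163 and 1924 reads) was at 0.13 [0.05, 0.21] and 0.09 [0.001, 0.18], and Nfib (8581, 2674, 1903 and 1586 reads) at -0.05 and -0.004, each with an interval across 0. Nfia was at -0.38 [-0.49, -0.28] and -0.44 [-0.67, -0.21], Cyp26b1 at -0.40 [-0.65, -0.15] and -0.60 [-0.78, -0.43], and Reg3g at -0.26 [-0.44, -0.10] and -0.20 [-0.75, 0.34]. Nfia and Cyp26b1 therefore had negative ratios in RNA and footprints alike. Their RNA intervals lay below 0, but of their footprint intervals only that of Cyp26b1 in OMP-GFP cells did. Reg3g had both intervals below 0 in Ngn1-GFP cells. Nfib and Nfix had RNA ratios near 0 with lower footprints. With the authors' TPM, which moves the median of all genes in Ngn1-GFP cells to 0.25, the RNA ratios there were 0.14 for Acsm4 and 0.18 for Nfib, on the other side of 0, and 0.36 for Nfix.

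Nqo1 per Ncam2 was higher in the KO column of both populations. Per length, Nqo1 footprints per Ncam2 footprint were 6.92 in the Ngn1-GFP control and 7.89 in its KO, a 1.14-fold change [1.05, 1.24]. They were 7.30 and 9.61 in OMP-GFP cells, a 1.31-fold change [1.22, 1.42]. In RNA the changes were 1.31-fold [1.27, 1.36] and 1.28-fold [1.24, 1.33]. The other dorsal enzyme did not share one direction: Acsm4 per Ncam2 changed 0.870-fold [0.792, 0.957] in Ngn1-GFP and 1.2004-fold [1.10, 1.31] in OMP-GFP cells. These intervals hold counting error only, and changes of this size cannot be set against a spread between mice.

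**Figure D3:**
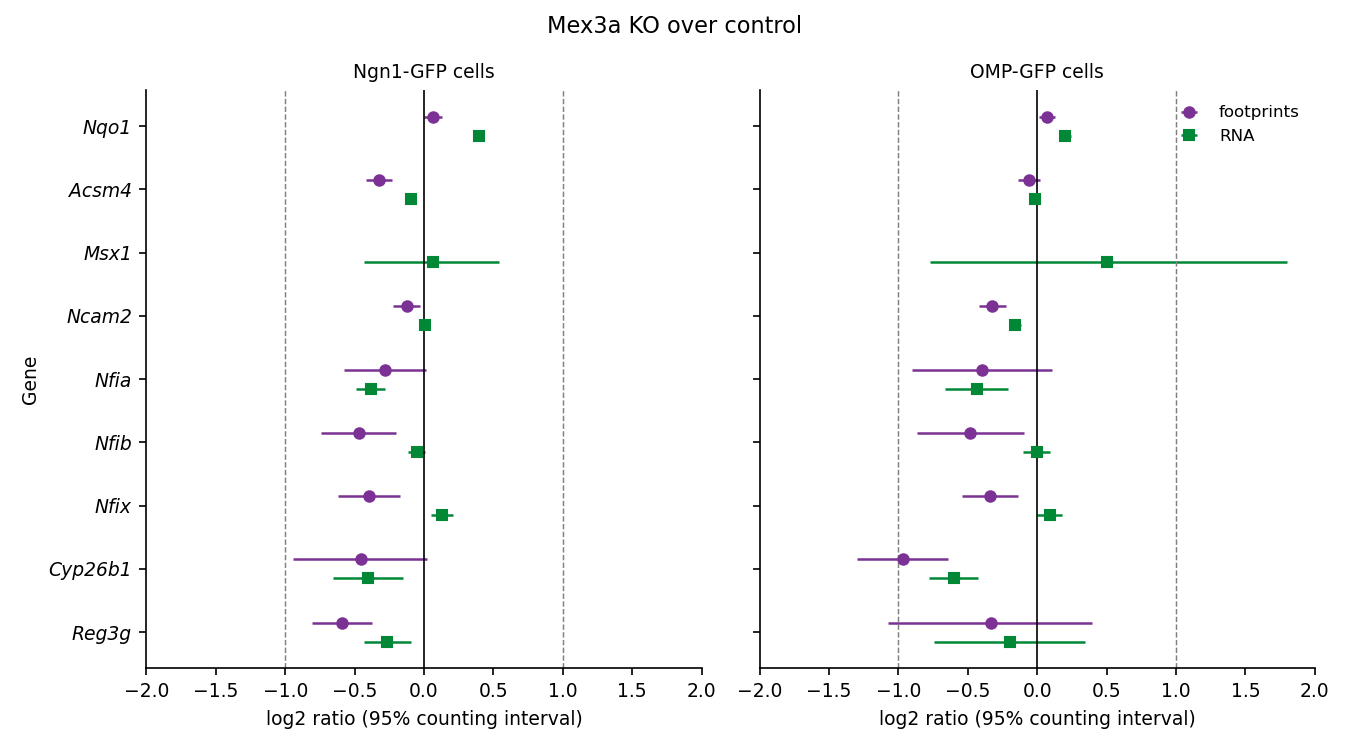
Log2 ratio of Mex3a KO over control for footprints (circles) and RNA (squares) of each gene in Ngn1-GFP (left) and OMP-GFP cells (right), with 95% counting intervals as bars and dashed lines at a 2-fold difference. All points lie between the dashed lines, and circles lie left of 0 for each gene with footprints except Nqo1.

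Footprints per RNA read ranged widely among the zone genes, with the highest member at 10.8, 11.5, 7.47 and 9.45 times the lowest. This quantity is the share of a column's footprints that a gene takes, divided by its share of RNA reads, and it does not depend on coding length or on scaling between columns. Reg3g had 8.92, 6.55, 4.58 and 3.99, at percentiles 98.9, 98.3, 97.1 and 95.5 of genes with 20 or more reads of both kinds. Nqo1 had 5.26, 3.84, 3.67 and 3.22, and Acsm4 had 2.64, 2.07, 2.21 and 2.06. Cyp26b1 had 3.41, 3.02, 2.53 and 1.89. These 4 genes lay at or above percentile 79.4 in each column.

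The ventral genes lay lower. Nfix had 1.95, 1.25, 1.83 and 1.30, Ncam2 had 1.498, 1.26, 1.38 and 1.18, and Nfia had 1.41, 1.40, 1.61 and 1.59. Nfib was the lowest in each column, at 0.827, 0.569, 0.613 and 0.423, and the one member below the column medians of 1.196, 1.07, 1.002 and 0.963. In each of the 4 columns both measured dorsal genes lay above all 4 ventral genes. The nearest pair was Acsm4 at 2.21 [2.12, 2.31] and Nfix at 1.83 [1.65, 2.02] in the OMP-GFP control. Nqo1 had 6.36, 6.74, 5.99 and 7.61 times the value of Nfib. With 2 dorsal genes measured, this order describes these genes and not the zones.

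KO over control, the ratio of footprints per RNA read was taken here after TMM scaling of both counts. It was called for 0 of 8 members in either population, where 18.2% and 16.2% of genes were. Among genes with at least 100 counts of each kind in the pair, 8.48% and 7.63% were called. The ratio was below 0 for 7 of 8 members in each, against 54.5% and 50.4% of all genes. By library size alone it was below 0 for 8 of 8 in each. The median of all genes in Ngn1-GFP cells was then -0.18, and -0.36 with the authors' values, in place of -0.06. The members farthest below 0 in Ngn1-GFP cells were Nfix at -0.53 [-0.76, -0.29] and Nfib at -0.42 [-0.69, -0.14], and in OMP-GFP cells Nfib at -0.48 [-0.86, -0.09] and Nfix at -0.43 [-0.65, -0.21]. Nfia was at 0.11 [-0.20, 0.41] and 0.04 [-0.49, 0.58]; its sign turns with the scaling, since the unscaled shares above give -0.01 and -0.02. Nfic had -0.99 [-1.501, -0.47] and -1.02 [-1.58, -0.46], and was called in OMP-GFP cells. Between populations 0 of 8 members were called in controls, against 14.5% of genes, and 0 of 8 in KO mice, against 22.9%. Reg3g was the nearest to a call, at -0.79 [-1.39, -0.20] in controls.

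**Figure D4:**
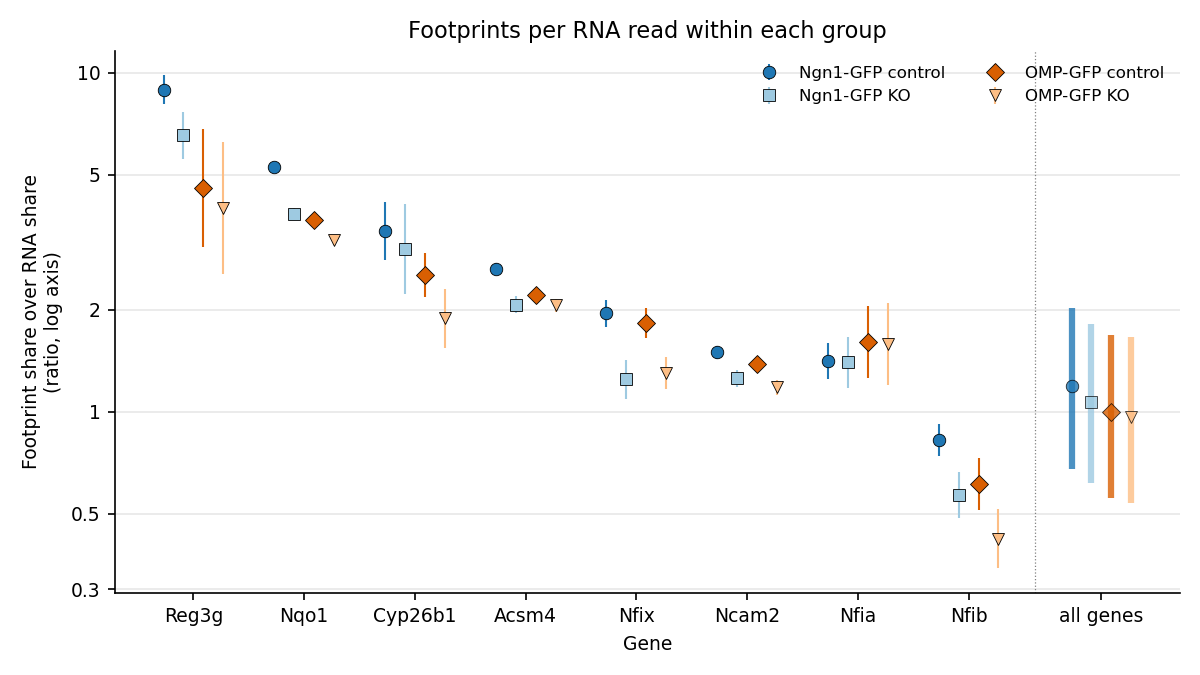
Footprint share over RNA share (ratio, log axis) of 8 genes in the 4 groups, with 95% counting intervals as bars, and for all genes with 20 or more reads of both kinds the median with quartiles as thick bars. The points of Reg3g, Nqo1, Cyp26b1 and Acsm4 lie above those of the ventral genes in each of the 4 columns, and Nfib is the lowest. In the OMP-GFP KO the intervals of Acsm4 and Cyp26b1 overlap that of Nfia.

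Other genes of the same pathways were read from lists, whose called counts in footprints stand against those of all genes: 17.3% (KO, Ngn1-GFP cells), 15.7% (KO, OMP-GFP cells) and 23.5% (between control populations). Of 14 other zonal genes, 2 were called lower in footprints in the Ngn1-GFP KO and 0 higher, among them the fatty acid transporter Cd36 (763 to 200 footprints, -1.31 [-1.54, -1.08]; RNA -1.16). In OMP-GFP cells 0 of 13 were called in footprints. Between control populations the LIM homeodomain factor Lhx2 (1737 to 356, -1.75 [-1.92, -1.59]) was lower and the semaphorin receptor subunit Plxna3 was higher (590 to 878, 1.11 [0.95, 1.26]) in OMP-GFP cells. The list median was 0.08 in both KO comparisons.

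Of the 21 other retinoid pathway genes, 14 had enough footprints in the Ngn1-GFP KO comparison. The retinal dehydrogenase Aldh1a2 (31 to 62, 1.62 [0.98, 2.29]; RNA 2.01) was among 2 genes called higher. Aldh1a1 (143 to 44, -1.08 [-1.60, -0.58]), the receptor Rxra (54 to 16, -1.13) and Rarb (39 to 6 footprints; named after its values were seen) were called lower. In OMP-GFP cells 1 of 11 was called higher, the receptor Rarb (16 to 39, 1.17 [0.29, 2.10]), and 2 lower, Rxra (38 to 17, -1.28 [-2.20, -0.42]) and Aldh1a1 (22 to 0). Rarb was thus called in opposite directions in the 2 populations; that difference was not tested. The retinoic acid-binding genes Crabp1 and Crabp2 were far lower in mature cells of controls, from 1961 to 106 (-3.68 [-3.97, -3.39]) and from 255 to 23 footprints (-2.94 [-3.62, -2.32]). Cyp26b1 was thus higher in the population in which these binding proteins were lower. The related enzymes Cyp26a1 and Cyp26c1 had 0 footprints in each column.

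Nqo1 is a target of the factor Nfe2l2, also called NRF2, and 13 genes of that response were read beside it. In the Ngn1-GFP KO 1 of 11 was called in footprints, the sulfiredoxin Srxn1 (46 to 74, 1.31 [0.76, 1.87]). In the OMP-GFP KO 1 of 12 was called, Nfe2l2 itself (1175 to 2667 footprints, 1.06 [0.96, 1.16]), while its RNA (9811 to 8963 reads) was not. List medians were 0.05 and -0.03, with Nqo1 at 0.06 and 0.07. Of 15 family relatives 3 had enough footprints in the KO comparisons. Acsm3 was called lower in the Ngn1-GFP KO (45 to 10, -1.55 [-2.70, -0.54]), and the other Reg genes and Msx3 had 0 footprints in each column.

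Class I olfactory receptors, which lie mostly in the dorsal zone, took 17.0% [16.6, 17.4], 16.0% [15.6, 16.4], 13.7% [13.3, 14.0] and 12.9% [12.6, 13.2] of classified receptor footprints (exact Clopper-Pearson intervals; 139 class I and 1021 class II genes). The KO column was the lower one in both populations, but by number of receptors with at least 10 footprints it was the higher one in Ngn1-GFP cells (15.1% against 13.8%). Their RNA shares were 15.4%, 16.2%, 15.4% and 14.5%, higher in the KO of Ngn1-GFP cells and lower in that of OMP-GFP cells.

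The genes nearest to each member in pattern over the 8 columns were found by Euclidean distance of centred log2 CPM, a description over 8 values among 10215 other genes. Nqo1 lay closest to the calcium pump Atp2a2, Prrg2 and Rsph9, Acsm4 to Plekhb2, Rab36 and Ap3m2, and Ncam2 to Ssu72, Nelfb and Atp6v1b2. Nfia lay closest to Vat1, Hdac2 and Qdpr, Nfib to Ppp2cb, Arhgdig and Snapc3, and Nfix to Dhrs1, Mrpl17 and Preb. Cyp26b1 lay closest to the receptor Olfr1162, Camk4 and Scgn, and Reg3g to Gnb2, Apobec3 and the G-protein gene Gnas. No member was among the 3 nearest genes of another. The closest pair of members was Ncam2 and Nfix at a distance of 0.304, against 0.105 for Ncam2 and Ssu72.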

How the data were processed

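Footprints and input RNA of 4 groups were measured, and the deposited table has 1 column per group and measure. The sources used here do not say how a group's libraries were combined. FastQC, cutadapt, STAR and the build mm10 are named, without versions, per the submitters' processing notes. Per the file headers, the counts are reads over coding sequences, the authors' coding length is in bases, and the authors also deposited a translational efficiency ratio, footprint RPKM and RNA TPM. RPKM and TPM recomputed from the deposited counts did not differ beyond rounding, and the deposited efficiency ratio was not used for results.

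Counts were scaled by TMM in edgeR 4.0.16 (R 4.3.3) on genes passing filterByExpr at its count limits of 10 per column and 15 in all (13479 genes for footprints, 16388 for RNA). Ratios, with 20 or more counts in the pair, carry exact conditional binomial 95% intervals (Python 3.11.15, scipy 1.17.1); those of footprints per RNA read, and of RNA ratios between 2 genes, are approximate. A count of 0 was set to 3 counts for a ratio. Reads copied by PCR are not independent molecules, so intervals cover counting error only. The ratio function was tested on simulated counts. All 9 members are named, with up to 4 called genes of each list by counts, and the 3 nearest genes of members with at least 100 footprints. Nfic and Rarb were added after their values were seen; Mex3a is the deleted gene and Omp a listed marker. Promoter sequences are from RefSeq (GRCm38.p6), which held 8 of 9 members. Members and lists were chosen with earlier results of these data known. Some genes of the lists are counted but not reported here by name.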

Additional observations from a re-analysis of the deposited data

How the results depend on the processing

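No paired analysis was possible because the table has 1 column per group, so no replicate could be left out or used as a block either. The scaling was replaced by DESeq2 (1.42.0) size factors, by library size alone, and by TMM that left out the genes of receptors, mitochondria and ribosomes. The filter was dropped to 1 count or raised to 100 counts in the pair, the authors' RPKM or TPM replaced the counts, and the fold was lowered to 1.5. TMM without genes at least 8-fold above each other column was added after the data were seen. No called member changed sign under these. Of 796 values of single members, 69 left the counting interval, all under library size alone or the authors' values. The 796 include the limits of 100 counts and 1.5-fold, which cannot move a ratio. For footprints, library size alone and RPKM give the same ratios and are 1 setting. The number of members called went from 0 to 1 in footprints of OMP-GFP KO over control by library size alone and by RPKM (Cyp26b1), and in footprints per RNA read of the control populations by RPKM and TPM (Reg3g). At 1.5-fold it went from 0 to 1 for KO footprints in each population, KO RNA in OMP-GFP cells and footprints per RNA read of the control populations, from 2 to 5 for footprints and from 4 to 5 for RNA of the KO populations, and from 3 to 4 for footprints and from 4 to 6 for RNA of the control populations. From RNA the Nqo1 to Ncam2 change in Ngn1-GFP cells was 1.31-fold in place of 1.14. By number of receptors with at least 10 counts, class I shares were 13.8% (control) and 15.1% (KO) for footprints of Ngn1-GFP cells, and 11.8%, 11.9%, 11.9% and 12.1% in RNA. Authors' TPM moved the median RNA ratio of the Ngn1-GFP KO to 0.25, and library size alone moved median footprint ratios between populations by over 0.1, to -0.23 in controls and -0.23 in KO mice. Low counts widen the intervals of Reg3g in OMP-GFP cells (36 and 31 footprints).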
